A study of Rattus norvegicus with 8 samples.

Results

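The probes described here are those that crossed the scanner's detection limit on exactly 3 of 4 arrays from nephrectomized rats and on none of 4 arrays from sham-operated rats. Each spot carries a flag of 0 or 1 for a signal well above its background, and a probe counted as detected on an array when any of its spots carried the flag. Of 41012 non-control probes 112 met this rule, which is 0.273% of them. 1 of the 112 was left out, and the other 111 are called members below. 45 members match a RefSeq gene symbol and stand for 44 genes, with Mthfd2 represented by 2 probes. The other 66 are unnamed here. They include genes of mitosis, the centromere, DNA replication and DNA repair, and Inhba, which encodes an activin subunit. The members were chosen by the flags of these same arrays, so their higher signal after nephrectomy is part of the choice and is given as a description, without a test.

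The samples are right kidneys of female F344/NSlc rats aged 10 weeks, 4 sham and 4 nephrectomized, with 1 Cy3-labelled RNA per array. No allele or agent other than the surgery is named in the labels, and both groups are of 1 strain and sex. The design text puts sampling at 2 days for both groups. By the source names, however, sham tissue was taken at 1 day and nephrectomized tissue at 2 days, and if so day and operation cannot be told apart. Nothing in the labels says that the 4 samples of a group came from separate animals, so spreads are those between these samples.

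Most cells of an adult kidney are not dividing. When the opposite kidney is removed the remaining one enlarges, mainly by growth of existing tubular cells, and a minority of cells enter the cell cycle. Genes of DNA synthesis are switched on in S phase, largely through E2F factors, and genes of mitosis later, through a complex of B-Myb, FOXM1 and MuvB. The late genes often carry a CHR element beside CCAAT boxes, which NF-Y binds. In a tissue with few dividing cells such transcripts lie close to the detection limit of an array. In RNA from whole kidney, fewer cells of a kind and less RNA per cell cannot be told apart.

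RefSeq promoters (GRCr8) were matched by symbol for 37 of the 44 member genes, in a window from 250 bases before to 50 bases after the start. Both strands were searched for CHR-like letters (TTTGAA, or else TTCGAA), for CCAAT, and for E2F-like letters (TTCCCGC, or else TTGGCGC, or else TTCGCGC, or else TTGCCGC). Of 56 matches in the member promoters, 0 overlapped a match of another motif. The 5 promoters below are shown because they belong to members of the mitosis, kinetochore and replication lists that hold both CHR-like and CCAAT letters, and Inhba is shown beside them because it holds CCAAT without the CHR letters. Each line gives the 150 bases before the start, 5′ to 3′ on the gene's strand, and capitals mark the searched letters.
Fam83d: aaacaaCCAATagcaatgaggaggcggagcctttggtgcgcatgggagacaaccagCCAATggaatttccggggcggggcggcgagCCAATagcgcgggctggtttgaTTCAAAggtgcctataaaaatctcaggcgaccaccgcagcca
Tacc3: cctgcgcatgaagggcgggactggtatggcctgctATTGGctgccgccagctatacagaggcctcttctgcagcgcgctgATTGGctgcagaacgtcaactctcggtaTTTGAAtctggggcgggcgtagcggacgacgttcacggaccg
Cenpa: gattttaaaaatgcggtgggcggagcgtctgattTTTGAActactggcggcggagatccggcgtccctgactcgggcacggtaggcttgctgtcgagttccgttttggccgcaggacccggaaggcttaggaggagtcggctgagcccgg
Cenpf: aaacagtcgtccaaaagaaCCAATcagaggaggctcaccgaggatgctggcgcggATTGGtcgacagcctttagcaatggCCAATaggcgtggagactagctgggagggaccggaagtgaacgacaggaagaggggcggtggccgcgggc
Gins3: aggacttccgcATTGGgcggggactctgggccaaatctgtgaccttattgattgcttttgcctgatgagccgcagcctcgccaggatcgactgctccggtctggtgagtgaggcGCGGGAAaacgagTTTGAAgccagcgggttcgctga
Inhba: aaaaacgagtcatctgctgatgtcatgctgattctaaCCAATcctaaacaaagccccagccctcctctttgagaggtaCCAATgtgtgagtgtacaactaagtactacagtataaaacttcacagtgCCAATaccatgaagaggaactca

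These stretches lie at chr3:167841642-167841791 on the plus strand for Fam83d, and on the minus strand at chr14:81289699-81289848 for Tacc3, chr6:31431553-31431702 for Cenpa, chr13:103760887-103761036 for Cenpf, chr19:9434680-9434829 for Gins3 and chr17:53804509-53804658 for Inhba. In Fam83d and Tacc3 the CHR-like letters begin 42 bases before the start. The nearest CCAAT letters begin at -64 in Fam83d and at -70 in Tacc3. Cenpf has 3 CCAAT matches in the printed stretch and its CHR-like letters just past the start, at base 3. Cenpa has its CHR-like letters at -116 and both CCAAT matches farther out, at -242 and -208. Gins3 holds all of the runs, with an E2F-like match at -36 beside the CHR-like letters at -23. Inhba has 3 CCAAT matches, at -113, -72 and -23.

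CHR-like letters were found in 12 of 37 member promoters (32.4%), against 19.7% of all 33469 promoters of this length. Both CHR-like and CCAAT letters were found in 7 of 37 (18.9%), against 7.95% of all promoters, and E2F-like letters in 7 of 37 (18.9%), against 9.52%. Of the 37, 9 promoters belong to members on the cell cycle, replication and repair lists. CHR-like letters stood in 6 of these 9 and E2F-like letters in 4, against 48.7% and 39.4% of the 193 promoters of all genes on those lists. Among the 28 promoters of the other members CHR-like letters were in 21.4%, CCAAT in 39.3% and E2F-like letters in 10.7%, close to the shares of all promoters. A match of letters is a description of the sequence and not a measured site.

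The arrays did not share 1 detection limit. Feature Extraction's estimate of additive noise, as a percent of the array's 75th percentile signal, was 1.04% to 1.08% on the sham arrays. On nephrectomized replicates 1 to 4 it was 1.23%, 0.964%, 1.06% and 0.834%, so replicate 1 was the noisiest array and replicate 4 the least noisy. The share of the 40871 probes in neither set that were detected was 61.8% ± 0.567 in sham and 62.7% ± 2.73 in nephrectomized samples (SD, n = 4 each), a difference of 0.861 percentage points (two-sided exact permutation test over 70 assignments, p = 0.629). Without nephrectomized replicate 4 this difference was -0.276. Each slide held 2 sham arrays at positions 1 and 2 and 2 nephrectomized arrays at positions 3 and 4, so position and group cannot be told apart.

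**Figure D1:**
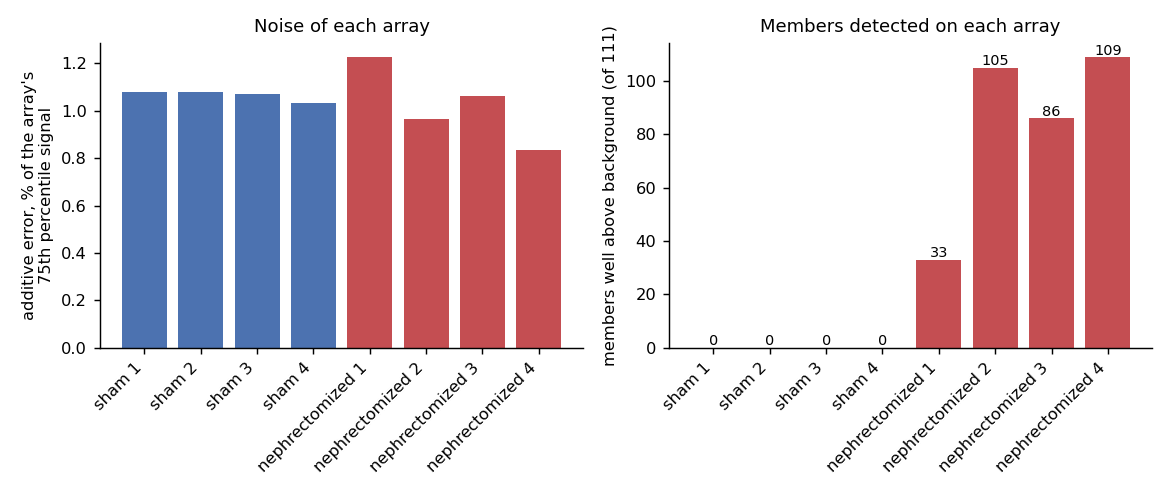
Left, additive noise estimated by the scanner software as a percent of the array's 75th percentile signal. Right, number of the 111 members well above background on each array. Bars are single arrays, blue for sham and red for nephrectomized. The noisiest nephrectomized array detected 33 members and the least noisy 109.

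Of the 111 members, 33 were detected on nephrectomized replicate 1, 105 on replicate 2, 86 on replicate 3 and 109 on replicate 4. Replicate 1 was thus the array that missed 78 of them. The order of the arrays by members detected is the reverse of their order by relative noise. The part of noise in the count was not tested apart from the following measurement, which used 1 floor for all arrays. It was set at -4.27 on the log2 scale relative to the 75th percentile, the mean over arrays of the 1st percentile of flagged probes. With it 46 members still lay above it on 3 nephrectomized and no sham array. A further 7 did so on all 4 nephrectomized arrays, 28 on 2, 12 on 1 and 2 on none, and 16 were above it on a sham array.

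The reverse set, detected on 3 sham arrays and on no nephrectomized array, held 28 probes, or 0.0683% of all probes. The members were 3.96 times as many. Under the common floor the same rule gave 84 probes on the nephrectomized side and 47 on the sham side, of which 46 and 19 were in the original sets. Among reverse probes the missing sham array was replicate 1, 2, 3 or 4 in 6, 7, 8 and 7 cases. The missing array was thus spread over the sham samples, whereas nephrectomized replicate 1 alone accounted for 78 of 111 members.

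**Figure D2:**
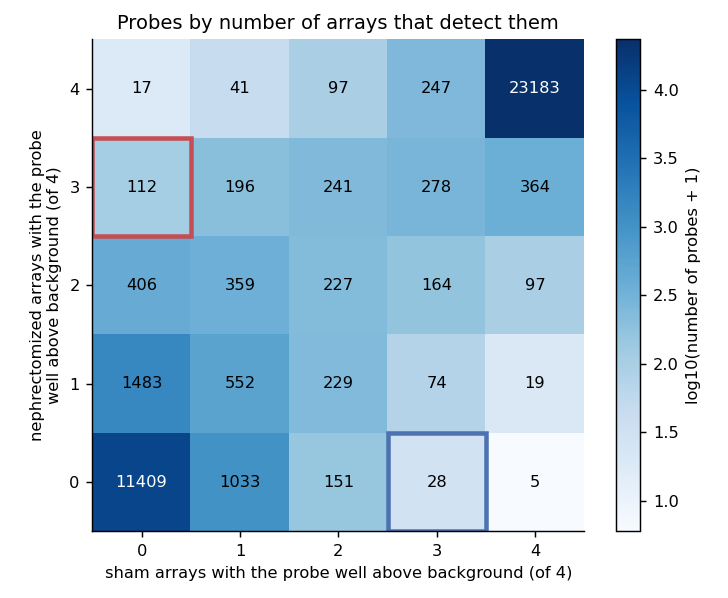
Number of probes for each count of sham arrays (horizontal) and nephrectomized arrays (vertical) on which they were well above background, shaded by log10 of the number. The red frame holds the 112 probes of the rule before 1 was left out, and the blue frame the 28 of the reverse set.

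Levels are given as log2 of the processed signal relative to the array's 75th percentile. Over the members, medians were -4.82, -4.69, -4.71 and -4.76 in sham replicates 1 to 4. In nephrectomized replicates 1 to 4 it was -4.35, -4.00, -4.08 and -3.90. All 4 nephrectomized medians were above all sham medians, and replicate 1 was the nearest to sham. In processed signal the median member read 17.5 to 22.8 units in sham and 24.3 to 28.8 in nephrectomized arrays, where additive noise was 3.24 to 6.95 units.

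The difference between group means, nephrectomized minus sham, was positive for all 110 members with a value on every array. It ran from 0.0075 to 2.78 with a median of 0.75, against a median of 0.0076 over all 40969 probes with complete values. 40 members exceeded 1 and 6 exceeded 2. The groups did not overlap for 50 of the 111, where 5.37% of all probes had every nephrectomized above every sham value, and nothing is read from this count because the same flags chose the members. With normexp background correction, which adds an offset of 50 to every signal, the member median was 0.35 and that of all probes 0.12. The differences printed below for named members shrank with it too, to 0.73 for Cenpf, 0.78 for Fam83d, 0.80 for Cenpa and 0.70 for Fam111a, and the 21 described with values on all 8 arrays lay between 0.21 (Gins3) and 0.80 (Cenpa).

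**Figure D3:**
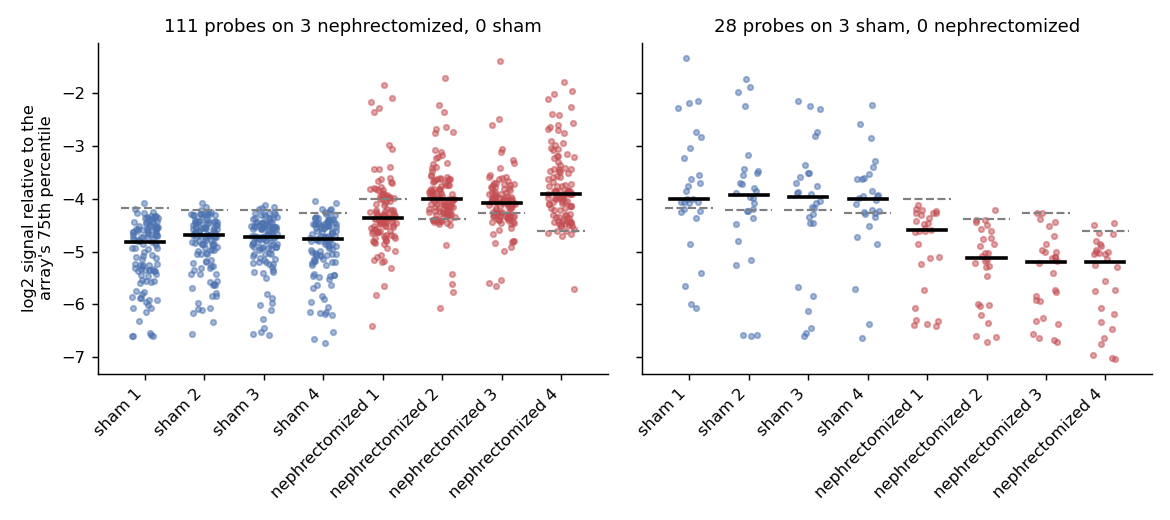
Each point is 1 probe on 1 array, members on the left and the reverse set on the right, as log2 signal relative to the array's 75th percentile. Black bars are medians and dashed lines the 1st percentile of flagged probes of that array. Member medians lie at -4.82 to -4.69 in sham and -4.35 to -3.90 in nephrectomized arrays, and the dashed line is highest on nephrectomized replicate 1.

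Since no sham array detected a member, its sham level is only a bound. A fold is given as "at least" after each dim sham value was raised to the lowest signal flagged on that array. For 104 members no sham value was that low, so this floor left their fold as measured, with a sham level that was still undetected. By this measure 41 members were at least 2-fold higher. With the floor at the 1st percentile of flagged probes, a choice made after the data were seen, only 3 were, namely Fam111a and 2 unnamed probes, and 35 members were not above the floored sham level at all. Mns1, Inhba, Or6c69b and Or52e5 are among these 35, and the other members described below with values by array kept at least 1.02-fold (Plk3) to at least 2.48-fold (Fam111a).

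Cenpf, Fam83d and Cenpa, with roles in mitosis and at the centromere, had the 3 largest differences among members on the gene lists. Cenpf, a large kinetochore protein of G2 and M phase, read -6.60, -6.56, -5.35 and -6.52 in sham replicates 1 to 4 and -5.20, -3.39, -4.05 and -2.91 in nephrectomized replicates 1 to 4. Every nephrectomized value was above every sham value, though replicate 1 only by a small step. The difference was 2.37 ± 0.52 (SE), at least 5.11-fold with the lowest flagged signal as floor and at least 1.25-fold with the 1st percentile. SE here and below comes from the limma fit, which shrinks each probe's variance toward a value shared by all probes. A second Cenpf probe, detected on 1 sham and 3 nephrectomized arrays, also differed by 2.37.

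Fam83d, a spindle protein that helps chromosomes align, read -5.85, -5.28, -5.80 and -5.64 in sham and -4.32, -3.31, -3.42 and -2.40 in nephrectomized samples. Here the groups stood farther apart, with a difference of 2.28 ± 0.37 (SE), a measured 4.85-fold and at least 1.81-fold with the stricter floor. Cenpa, the histone H3 variant that marks centromeres, read -6.59, -4.93, -6.44 and -6.73 in sham and -5.82, -2.35, -4.32 and -3.19 in nephrectomized samples. Nephrectomized replicate 1 was below sham replicate 2, so the groups overlapped, and the difference was 2.26 ± 0.76 (SE).

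Cdca2, a phosphatase-targeting subunit that acts on chromosomes at mitotic exit, read -5.37, -5.05, -4.72 and -5.04 in sham and -4.36, -3.11, -3.67 and -2.64 in nephrectomized samples, a difference of 1.60 ± 0.35 (SE) without overlap. Tacc3, which stabilises microtubule bundles at kinetochores, read -5.87, -4.82, -5.22 and -4.54 in sham and -4.63, -4.02, -4.17 and -3.35 in nephrectomized samples. Its difference was 1.07 ± 0.35 (SE), and nephrectomized replicate 1 lay just under the highest sham value. Mastl, the Greatwall kinase that restrains a phosphatase during mitosis, was on no list but was among the largest differences. It read -4.86, -5.04, -4.91 and -5.25 in sham and -4.44, -3.07, -3.78 and -2.69 in nephrectomized samples, a difference of 1.52 ± 0.36 (SE). In Cenpf, Fam83d, Cdca2, Tacc3 and Mastl alike, nephrectomized replicate 4 was the highest array and replicate 1 the lowest of its group.

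**Figure D4:**
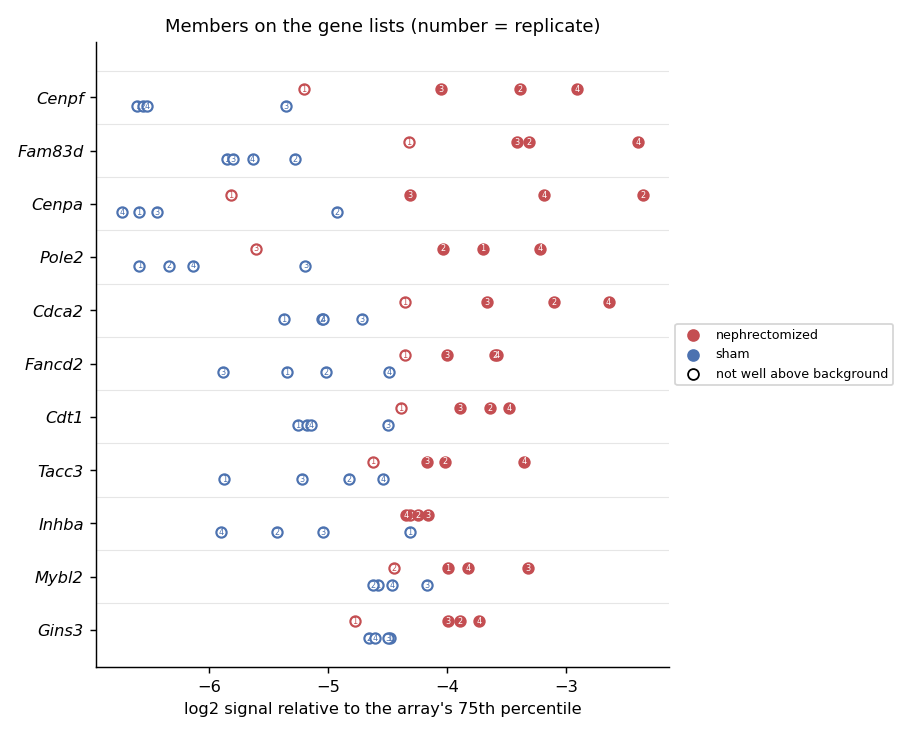
Members on the gene lists, log2 signal relative to the array's 75th percentile on each array. Red points are nephrectomized and blue sham samples, the number is the replicate, and open points were not well above background. Replicate 1 is the open red point in 9 of the 11 genes, and the groups do not overlap in Cenpf, Fam83d, Cdca2, Fancd2 and Cdt1.

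Members of DNA replication and repair differed by 0.46 to 1.92. Cdt1, which loads the MCM helicase at origins, read -5.26, -5.18, -4.50 and -5.14 in sham and -4.39, -3.64, -3.90 and -3.48 in nephrectomized samples. The difference was 1.17 ± 0.24 (SE), with the groups separate by a narrow gap. Pole2, the accessory subunit of DNA polymerase epsilon, read -6.59, -6.34, -5.19 and -6.14 in sham and -3.70, -4.04, -5.60 and -3.22 in nephrectomized samples. This probe was missed by nephrectomized replicate 3 and not by replicate 1, and the groups overlapped around a difference of 1.92 ± 0.53 (SE).

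Gins3, a subunit of the GINS complex of the replicative helicase, read -4.48, -4.66, -4.50 and -4.61 in sham and -4.78, -3.90, -4.00 and -3.73 in nephrectomized samples. Replicate 1 was below all sham values while the other nephrectomized values were above them, with a difference of 0.46 ± 0.22 (SE). Fancd2, a central protein of DNA crosslink repair, read -5.35, -5.02, -5.89 and -4.49 in sham and -4.36, -3.60, -4.00 and -3.58 in nephrectomized samples, a difference of 1.30 ± 0.31 (SE) without overlap. Mybl2, which encodes B-Myb, read -4.58, -4.63, -4.17 and -4.46 in sham and -3.99, -4.45, -3.32 and -3.83 in nephrectomized samples. It was the listed member missed by nephrectomized replicate 2, and its groups overlapped around a difference of 0.56 ± 0.23 (SE).

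Inhba encodes the subunit of activin A, a ligand of the TGF-beta family that signals through SMAD proteins. Its member probe read -4.32, -5.43, -5.04 and -5.90 in sham and -4.31, -4.24, -4.17 and -4.35 in nephrectomized samples. Nephrectomized values were close together and sham replicate 1 lay among them, with a difference of 0.91 ± 0.30 (SE). A second Inhba probe was detected on all 8 arrays and differed by 0.33, and another was detected on none and differed by -0.41. The probes of this gene thus disagree, and 1 of them was above background in every sham sample.

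The same check was made for every member gene that has another probe. There were 18 such probes for 15 genes, of which 8, for 8 genes, were detected on all 8 arrays. These 8 were Cdca4, Inhba, Mybl2, Plk3, Tiam1, Tp53inp2, Vav2 and Zswim8, with differences from -0.04 for Zswim8 to 0.97 for Mybl2. For these genes the flags describe 1 dim probe, and another probe was above background in every sham sample. Of the other 10 probes, 4 were detected on no array, 1, for Fam111a, on 2 nephrectomized and no sham array, and 5 on some sham arrays. The Fam111a probe differed by 1.30. Over the 18 probes 14 differences were positive, with a median of 0.32. The remaining 29 genes have no second probe matched by symbol.

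Outside the lists, Fam111a had the largest difference of a named member. It encodes a protease that acts at replication forks, and it read -5.13, -5.79, -4.36 and -5.08 in sham and -3.78, -2.64, -3.11 and -2.10 in nephrectomized samples. The groups were separate, with a difference of 2.18 ± 0.41 (SE), a measured 4.53-fold and at least 2.48-fold with the stricter floor. Mthfd2, a mitochondrial enzyme that supplies one-carbon units for nucleotide synthesis, had 2 member probes. The first read -4.33, -4.58, -4.57 and -4.98 in sham and -3.82, -3.62, -3.63 and -3.19 in nephrectomized samples, a difference of 1.05 ± 0.18 (SE). For the second the difference was 0.94, again without overlap, and another probe, detected on 2 sham and 3 nephrectomized arrays, differed by 0.31.

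Etv4, an ETS transcription factor known from branching of the ureteric bud, read -5.37, -4.54, -4.87 and -5.84 in sham and -4.46, -4.00, -3.94 and -3.98 in nephrectomized samples. It differed by 1.06 ± 0.28 (SE), and its other probe, detected on 1 sham and 3 nephrectomized arrays, by 1.54. Plk3, a stress-responsive polo-like kinase, read -5.89, -5.42, -4.76 and -4.76 in sham and -4.41, -4.13, -3.60 and -4.60 in nephrectomized samples, a difference of 1.02 ± 0.32 (SE). Replicate 4 was flagged at -4.60 whereas replicate 1 was not flagged at -4.41, so that the limits of these arrays differed for 1 and the same probe.

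Mns1, a protein of motile cilia and flagella, read -6.60, -5.56, -6.11 and -6.15 in sham and -5.18, -4.27, -4.28 and -3.57 in nephrectomized samples, with a difference of 1.78 ± 0.35 (SE), no overlap and no fold above the stricter floor. Niban3 read -4.73, -4.78, -4.46 and -6.04 in sham and -3.39, -4.39, -4.40 and -2.01 in nephrectomized samples, a difference of 1.46 ± 0.59 (SE), and both replicates 2 and 3 lay just above the sham range. In both genes the highest value was nephrectomized replicate 4.

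In the next members a few arrays stood out. Cyp2a2, a steroid-hydroxylating cytochrome P450, read -5.91, -4.42, -5.50 and -4.87 in sham and -4.79, -2.23, -4.06 and -4.56 in nephrectomized samples, where only replicate 2 stood far out. C5h1orf159 read -4.36, -4.27, -4.70 and -5.04 in sham and -4.74, -4.26, -1.39 and -3.07 in nephrectomized samples, and on slide 1 alone its difference was -0.18, against 2.64 on slide 2. Or6c69b, an olfactory receptor gene, read -5.91, -5.84, -5.40 and -6.20 in sham and -6.41, -3.81, -4.12 and -4.30 in nephrectomized samples, so that replicate 1 was below every sham array. Their differences over all arrays were 1.26 ± 0.60, 1.23 ± 0.68 and 1.18 ± 0.55 (SE).

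**Figure D5:**
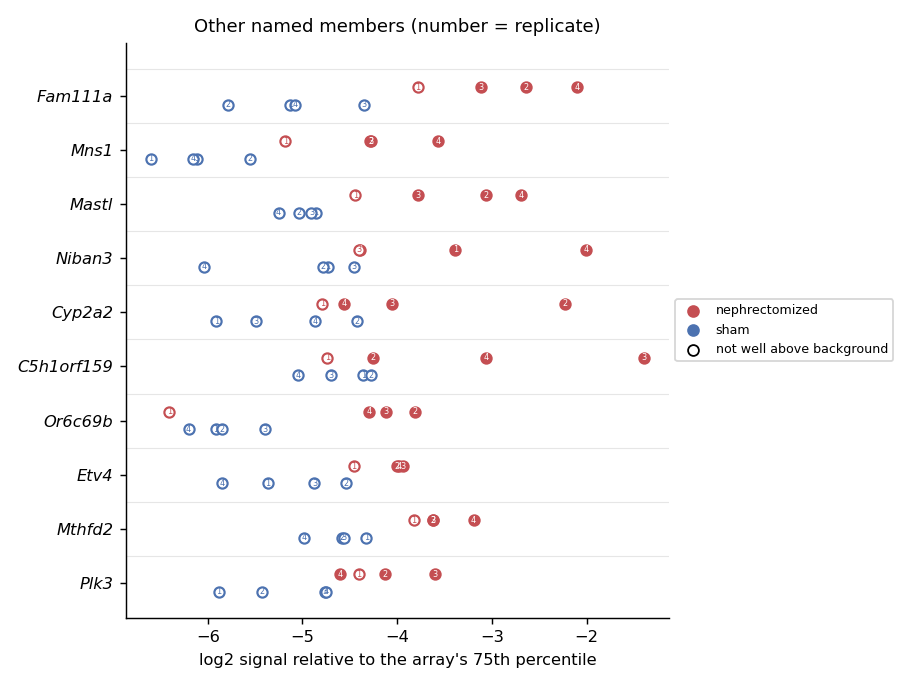
The 10 named members outside the lists with the largest differences among those with a value on every array, drawn as log2 signal relative to the array's 75th percentile, with red for nephrectomized and blue for sham samples, the replicate as a number, and open points where the probe was not well above background. The groups do not overlap in 7 of the 10, where 5.37% of all probes had every nephrectomized above every sham value, and the flags chose the members. Replicate 3 of C5h1orf159 stands alone at -1.39.

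The other named member probes numbered 24. Or52e5, an olfactory receptor gene, read -6.55, -5.05, -6.53 and -4.73 in sham samples and -5.65, -4.11 and -3.85 in nephrectomized replicates 1, 2 and 4. Its spot on replicate 3 was an outlier and gave no value, so it was not ranked with the 10 above, although its difference over 7 arrays was 1.18. Over the 23 with complete values the differences ran from 0.24 for Cdyl to 1.02 for Fam167a with a median of 0.59. The groups did not overlap for 13 of the 24, where 5.37% of all probes had every nephrectomized above every sham value. The flags chose the members, so nothing is read from this count. Wdhd1, a replication fork protein, differed by 0.73, and Cdca4, a cell division cycle-associated factor, by 0.47. Slc47a2, a proton-coupled exporter of organic cations, differed by 0.80, Pfkfb1, which sets fructose 2,6-bisphosphate levels, by 0.81, and Tp53inp2, an autophagy regulator, by 0.69. Among genes of signalling and cell contact, Ceacam1 differed by 0.57, Tiam1 by 0.38, Vav2 by 0.35 and Nrn1 by 0.51. For the matrix collagen gene Col8a1 it was 0.59 and for the amine oxidase gene Aoc3 0.36. Trim6 was at 0.63, Smtnl1 at 0.65, Zswim8 at 0.54, Ppp1r17 at 0.61, Ppp1r42 at 0.47, Efcab11 at 0.92, Iqcm at 0.84 and Spaca4 at 0.39. The olfactory receptor gene Or7g18 was at 0.57. The 66 unnamed probes ran from 0.0075 to 2.78 with a median of 0.70.

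The named probes of the reverse set were fewer and varied more. Over the 28 reverse probes the median SD between sham samples was 1.22, against 0.42 between nephrectomized samples for the members. The median difference was -1.20, and 4 of the 28 did not overlap, where 2.6% of all probes had every nephrectomized below every sham value. Pabpc5, a poly(A)-binding protein gene, read -2.14, -3.16, -6.60 and -4.27 in sham and -6.41, -6.35, -6.37 and -6.76 in nephrectomized samples. Cyp3a9, a cytochrome P450 of steroid and drug metabolism, read -3.76, -3.44, -6.44 and -4.21 in sham and -5.11, -6.62, -6.57 and -6.64 in nephrectomized samples. In both genes sham replicate 3 was at the level of the nephrectomized arrays. Prrg1 read -4.24, -1.97, -4.46 and -3.93 in sham and -6.07, -4.57, -5.18 and -4.86 in nephrectomized samples, and was the named reverse probe without overlap. The differences of Ggta1l1, Mdga2, Zbed3 and Zfp37 were -1.71, -0.89, -0.27 and -0.14. Only probes with a symbol could match a list, 7 of the 28 and 45 of the 111 members. Of these, 0 and 11 were probes of a gene on the lists. Nothing is read from this contrast, since the lists were chosen with earlier results of these data known.

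Just outside the rule, 17 probes were detected on all 4 nephrectomized and no sham arrays, 406 on 2 and none, and 196 on 3 and 1. Their median differences were 1.09, 0.35 and 0.34, against 0.75 for the members. Genes on the lists accounted for 4 of the 17, 14 of the 406 and 5 of the 196. The 4 were Cenpw, Knstrn, Parpbp and Ska1, which act at kinetochores, the spindle or in repair, with differences of 2.88, 2.67, 2.08 and 2.69. The 14 with 2 nephrectomized arrays ran from 0.23 for Hjurp to 2.09 for the mitotic kinase gene Aurkb. Among them were the spindle gene Gtse1 at 1.98, the microtubule depolymerase gene Kif2c at 1.87 and the polymerase gene Pole at 1.38. Hjurp was detected on nephrectomized replicates 3 and 4, and each other listed probe of the 14 on replicates 2 and 4. Replicates 2 and 4 were the arrays with the least relative noise and the highest detected shares, 63.4% and 66.1% of all probes. How many of all 406 probes were detected on replicates 2 and 4 was not computed, so nothing is read from this pattern. The part of noise in it was not tested. With 3 and 1, the 5 listed probes ran from 0.65 for Mybl1 to 2.52 for Prc1. Prc1, a midzone microtubule bundler, was detected in sham replicate 3. On the sham side none of the 5 probes at 4 to 0, of the 151 at 2 to 0 or of the 74 at 3 to 1 belonged to a listed gene. Of those sham-side probes only 1, 52 and 19 have a symbol, against 6, 129 and 74 on the nephrectomized side.

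At the threshold itself, members flagged on nephrectomized replicate 1 lay at or above -4.12, those on replicate 4 at or above -4.70, and those on replicates 2 and 3 at or above -4.50 and -4.46. Unflagged members reached -3.78 on replicate 1, -4.45 on replicate 2, -3.96 on replicate 3 and -4.47 on replicate 4. For the 78 members missed by replicate 1, its own level was 0.37 above the sham mean in the median, and above it in 63. The mean of the other nephrectomized arrays was 1.00 above in the median. The rule asked for no flag in sham, and replicate 1 had the highest 1st percentile of flagged probes, at -4.01. An excess over sham is thus favoured by the choice of probes, and nothing is read from these values.

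The lists name which genes around the members were measured, each by its brightest probe on average. Of 91 mitosis and cytokinesis genes 68 were on the array, 43 of them detected on all 8 arrays, and 19 were detected on more nephrectomized than sham arrays and 0 on more sham arrays. The corresponding counts were 10 and 0 of 22 for centromere and kinetochore genes, 7 and 1 of 44 for DNA replication, 5 and 0 of 19 for DNA repair and 2 and 0 of 20 for cell cycle transcription factors. Over all 41012 probes, 1483 were detected on 1 nephrectomized and no sham array and 1033 the other way round. With no array of the other group, the counts were 406 against 151 on 2 arrays, 112 against 28 on 3 and 17 against 5 on 4. They were 359 against 229 for 2 and 1 arrays, 196 against 74 for 3 and 1, and 41 against 19 for 4 and 1. They were 241 against 164 for 3 and 2, 97 against 97 for 4 and 2, and 247 against 364 for 4 and 3. Members, which are higher by the rule, made up 3, 1, 3, 1 and 0 of the nephrectomized counts. These pairs count all probes, whereas the lists count 1 probe per gene, so nothing is read from the counts of these lists. Median differences of these lists were 1.17, 0.94, 0.47, 0.73 and 0.15, in the order given. All 19 measured activin and TGF-beta genes were detected on all 8 arrays, with a median of -0.04. Tubular injury genes had a median of 0.03, and 1 of 13 was detected on more nephrectomized and 2 on more sham arrays.

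Fitted with limma over 40969 probes, 0.0659% of probes were called higher and 0.0146% lower at a p of 0.05 after Benjamini-Hochberg adjustment, that is 27 and 6. Of the 110 members in the fit 0 were called, and 75 had an unadjusted p under 0.05 in the higher direction, where 6.96% of all probes did. The rule used this contrast, so nothing is read from these counts. Among the brightest probes of listed genes, Kif18a, a mitotic kinesin detected on all 8 arrays, and Orc1, a subunit of the origin recognition complex, were called higher and none lower. Kif18a rose by 1.07 ± 0.10 (SE), with a limma adjusted p of 0.0411 and without overlap. Orc1 was detected on 1 nephrectomized and no sham array, so its sham level is only a bound. Its measured means were -5.73 in sham and -4.49 in nephrectomized samples (limma adjusted p = 0.0411). This is a measured 2.37-fold, which the lowest flagged signal as floor did not change, and Orc1 had no fold above the stricter floor. The number of calls rests on single arrays, with 0 probes called when any 1 of the sham arrays or nephrectomized replicate 3 or 4 was left out, 2 without nephrectomized replicate 2 and 117 without nephrectomized replicate 1. With probes filtered at 3 of 8 arrays, which members pass only through the nephrectomized group, 197 probes and 8 members were called.

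Markers of kidney cells were present on every array, with all 5 proximal tubule, 4 distal nephron, 4 collecting duct, 4 podocyte and 4 endothelial markers detected throughout. Of 14 leukocyte markers 8 were detected on all arrays, and Cd4, Cd79b and Itgam on none. The summed linear level of the list relative to the 75th percentile was 23.3 to 26.1 in sham and 21.1 to 25.1 in nephrectomized samples, and Lyz2, with a log2 mean of 4.27 and 4.22, made up most of it. Single leukocyte markers differed more, with S100a8 at -1.69 (limma adjusted p = 0.115), S100a9 at -1.40 (limma adjusted p = 0.0657) and Adgre1 at -0.51 (limma adjusted p = 0.140), nephrectomized minus sham. Red cell markers summed to 2.36 to 3.58 and 2.78 to 3.65, and fat and adrenal markers to 0.902 to 1.15 and 0.943 to 1.16, with Lep, Cyp11b1 and Cyp11b2 detected on none. Stroma and muscle markers summed to 17.4 to 27.0 and 18.3 to 29.2, and urothelial markers to 0.232 to 0.383 and 0.227 to 0.254. The ranges of the groups overlapped for each list, no marker was called or was a member, and the part of other cell types in the members' signal was not tested.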

How the data were processed

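Total RNA was hybridised to 1-colour Agilent rat arrays. The image software, per the file headers, was version 10.5.1.1 of Agilent Feature Extraction, and these headers place the probe design on an older rat assembly than GRCr8. The authors deposited 1 scanner file per array, with a linear intensity per spot that the software had already corrected for background, beside flags of 0 or 1. A series-wide table of log2 values was also deposited, with no description in the labels. Its columns correlated at 0.999997 or more with the scanner values of the same arrays after scaling to the 75th percentile and subtracting each probe's median, with column medians from -0.0146 to 0.0153, so that scale, centring and direction are known. This table has 30513 of the probes, and the 30487 that also had scanner values on every array were fitted.

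Of 45018 spots per array 1639 control spots and outlier spots were left out, spots of a probe were averaged on the log2 scale, and the 75th percentile over probes was subtracted. 18704 of 41012 probes matched a symbol by RefSeq accession without version. No probe was saturated, the 75th percentile signal was 388 to 643 units, and the number of arrays limits the precision. The comparison of groups used limma (version 3.58.1, R 4.3.3; lmFit and eBayes with 6 residual and 1.62 prior degrees of freedom) over the 40969 probes with a value on every array and without a filter on dim probes, since a filter at 4 of 8 arrays removes every member. On simulated arrays of 40969 probes this fit recovered 79% of probes changed by 1 and 95% of those changed by 2 on the log2 scale. The changed probes were drawn from those detected on at least 4 of 8 arrays, so these shares do not cover probes as dim as the members.

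Members, lists and tests were chosen with earlier results of these data known. Named are all members on the lists, the 10 other named members with the largest differences among those with a value on every array, which passed over Or52e5 although the rule set no such limit, the 7 reverse probes with a symbol, and examples just outside the rule chosen after their values were seen. Replicate numbers are shared between groups but were not used to pair the samples in the main fit. Correlations of deviations were -0.0555 to 0.0683 for the same number and -0.103 to 0.110 for different numbers. These values cannot show whether the samples were paired. The alternatives were other flags and floors, other background corrections and normalizations, filters, blocks, single slides and omission of each array in turn. Normexp correction used median spot signals with an offset of 50.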

Additional observations from a re-analysis of the deposited data

Results flagged for a closer look

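In groups of 4, 9 of 64 groups examined held a sample whose gap to the others exceeded Dixon's 95% value. The chance rate of about 1 in 20 does not apply to the group in which the rule asked for detection on 3 of 4 arrays, since 1 array set apart is part of that choice. For Etv4, Mdga2 and Zfp37 the sample set apart was the array that did not detect the probe. In sham samples replicate 3 was high for Cenpf at -5.35 (others -6.60 to -6.52) and for Cdt1 at -4.50 (others -5.26 to -5.14), and replicate 2 was high for Cenpa at -4.93 (others -6.73 to -6.44). For Etv4 nephrectomized replicate 1 was low at -4.46, the others lying at -4.00 to -3.94. Among reverse probes, Mdga2 was low in sham replicate 1 at -6.06 and Zfp37 in sham replicate 2 at -4.79. Pabpc5 was low in nephrectomized replicate 4 at -6.76 and Cyp3a9 high in nephrectomized replicate 1 at -5.11. The median of the reverse set in nephrectomized replicate 1 was -4.60, above -5.20 to -5.12 in the others, on the array with the highest relative noise.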

How the results depend on the processing

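Requiring every spot to carry the flag, or dropping outlier spots, gave 112 and 111 probes. With the weaker flag for signals positive and significant there were 168 probes on the nephrectomized and 41 on the sham side, and the common floor gave 84 and 47. At 4 arrays the counts were 17 and 5, and at 2 arrays 406 and 151. Leaving out 1 nephrectomized array, added after the data were seen, and asking for detection on all 3 others gave 19 to 95 probes, 19 without replicate 4 and 95 without replicate 1. With the floor at the 1st percentile, also added after the data were seen, 3 members were at least 2-fold higher, against 41.

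The median difference was 0.35 for members and -0.15 for reverse probes with normexp, against 0.75 and -1.20. It was 0.71 on each slide alone for members (0.714 and 0.706), and -0.90 for reverse probes on slide 1. Leaving out each array gave 0.67 to 0.81 and -1.39 to -1.05. Of 336 values of 21 named differences 335 were positive, and C5h1orf159 was at -0.18 on slide 1. Of the 336, 18 moved by over 1 SD, 15 of them with normexp. The rule used this contrast on these same arrays, so the signs of these differences and medians are part of the choice. Nothing is read from them.

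Of all probes 33 were called, against 78 with normexp, 50 with cyclic loess, 86 in the deposited table, 197 and 207 with filters at 3 and 4 of 8 arrays, 223 with trend and robust variance, 0 on either slide alone (2361 and 2260 at an unadjusted p under 0.05) and 0 to 117 without 1 array. The replicate number as a block gave 0 calls among all probes and among members, with 3839 probes at an unadjusted p under 0.05, against 4318 without it. Members called were 1 with quantile and with cyclic loess, 3 in the deposited table, 8 with the filter at 3 arrays, 2 with slide as a block, 2 with trend and robust variance and 0 to 4 without 1 array. Of all 40969 probes, 33 were called with quantile and 34 with slide as a block. The deposited table gave 86 of 30487 and the filter at 3 arrays 197 of 25955. The rule used this contrast, and members pass that filter only through the nephrectomized group, so nothing is read from the member counts. The difference in detected share was 0.861 percentage points and -0.276 without nephrectomized replicate 4, with a range of -0.276 to 1.87 when each array was left out, and 2.31 with the weaker flag. The causes were not tested. No sham array detected a member, so each sham level is only a bound.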
